A study of Mus musculus with 18 samples.

Results

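The 33 genes described here supply amino acids to the cell or answer to the transcription factor ATF4. They are a list of gene symbols drawn up by pathway, with earlier results of these data known and with no threshold on a measured value, and make up 33 of the 27179 genes listed in the deposited count files. All 33 were found there. They comprise 9 genes of ATF4 and its stress partners, 8 enzymes of asparagine, serine and one-carbon synthesis, 2 enzymes of proline synthesis, 9 amino acid carriers, and 5 transaminases and glutamate dehydrogenase.

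ATF4 is a transcription factor whose protein is made mainly when the initiation factor eIF2alpha is phosphorylated, for example by the kinase GCN2 when uncharged tRNA accumulates. It binds composite sites with C/EBP proteins and drives genes for amino acid synthesis, import and tRNA charging. T cells that are activated through their antigen receptor import large amounts of amino acids, and one-carbon units made from serine feed their purine and thymidine synthesis. Because ATF4 is controlled largely at translation, the level of its messenger RNA is not a measure of its activity.

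The study profiled mouse naive CD4 T cells that had been stimulated for 3.5 days in vitro with plate-bound antibodies to CD3 and CD28, under culture conditions named Tfh_5, Tfh_1 and Tfh_A. The labels do not give the composition of these conditions. Cells were stained, sorted into a lysis reagent, and 50 ng of their RNA was made into libraries with a kit that reads the 3′ end of polyadenylated transcripts. All 18 libraries carry the loxP-flanked Maf genotype (Maf fl/fl), with the labels CD4Cre+ Maf fl/fl on 9 libraries and CD4Cre- Maf fl/fl on the other 9. The 6 groups of 3 libraries are CD4Cre+ and CD4Cre- in Tfh_5, CD4Cre+ and CD4Cre- in Tfh_1, and CD4Cre+ and CD4Cre- in Tfh_A. CD4Cre expresses the recombinase from the Cd4 promoter, which is active from the double-positive thymocyte stage on, so that it is meant to delete Maf, the gene for the transcription factor c-Maf, in T cells before culture. The labels give no strain, age or sex, do not say which cells the sort kept, and do not say whether the 3 libraries of a group came from separate animals. The p-values below therefore measure the spread between these libraries, which may be technical.

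Maf RNA went against the genotype labels. It stood at 397, 331 and 319 CPM (counts per 1000000 counts of a library) in the libraries labelled CD4Cre+ of Tfh_5, against 0 in all 3 libraries labelled CD4Cre- of Tfh_5. In Tfh_1 it was 207, 260 and 196 CPM in the CD4Cre+ libraries, against 0, 0 and 2.03 CPM in the CD4Cre- libraries. In Tfh_A it was 22.8, 8.07 and 5.03 CPM in the CD4Cre+ libraries, against 0.27, 0 and 0 CPM in the CD4Cre- libraries. The sources used here do not say which part of Maf is flanked by loxP sites. Whether the genotype labels were exchanged was not tested, and an exchange would turn round every direction given below for the genotype label. Groups are named by their labels throughout.

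Total counts ran between 6424874 and 9236153 per library, with 10242 to 12673 genes above 0. The 2 most abundant identifiers took between 19.7% and 46.2% of a library's counts. Defining markers of CD4 T cells (5 genes: Cd4, Cd3e, Cd3d, Cd3g and Cd28) summed to 938 to 2206 CPM, with 1659 to 1976 CPM in CD4Cre+ and 1046 to 1321 CPM in CD4Cre- libraries of Tfh_5, and 1935 to 2206 CPM in CD4Cre+ and 938 to 1271 CPM in CD4Cre- libraries of Tfh_1. In Tfh_A they summed to 1023 to 1369 CPM in CD4Cre+ and 1000 to 1101 CPM in CD4Cre- libraries. The part of these marker levels in the label differences below was not tested. Markers of other blood cells were near 0 in every library, with summed levels of at most 7.84 CPM for CD8 T cells, 4.67 CPM for B cells, 8.50 CPM for NK cells, 10.4 CPM for myeloid cells and 5 CPM for erythroid cells. Ncr1, Lyz2, Adgre1, Hba-a1 and Hbb-bs had no count in any library. In bulk RNA, fewer cells that express a gene and less RNA per cell cannot be told apart.

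Start regions of the members were searched for the site that ATF4 is known to bind with C/EBP proteins. The letters TGATGNAA, the core of the C/EBP-ATF response element, were searched on both strands in RefSeq windows of 300 bases, 250 before and 50 after each gene's start (build GRCm38.p6). Of the 33 members, 29 had such a window, and 7 of those 29 held the letters. Over all genes with a window, 1219 of 27025 did, or 4.51%. The 7 were Trib3, Chac1, Asns, Pycr1, Slc7a11, Slc1a4 and Got1, and Slc7a11 held them 2 times. Eif4ebp1, Slc7a5, Slc1a5 and Slc38a1 had no window in the table. A match of letters describes the sequence and does not show binding.

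The stretches around these letters are shown for Asns and Got1, since the results on the genotype label turn on these genes, and for Chac1 and Slc7a11, ATF4 targets that were at or near 0 counts in most groups here. Capitals mark 1 match in each, every stretch ends before the gene's start, and each is written 5′ to 3′ along the gene's own strand. The Asns stretch is chr6:7693210-7693262 on the minus strand, with the match beginning 23 bases before the start. The Got1 stretch is chr19:43524670-43524737 on the minus strand, with the match beginning 102 bases before the start. The Chac1 stretch is chr2:119351019-119351086 on the plus strand, 193 bases before the start. The Slc7a11 stretch is chr3:50443642-50443709 on the minus strand, 66 bases before the start. In Asns and in the capitals of Slc7a11 the letters read forward along the gene, and in Got1 and Chac1 they stand as the reverse complement. The second Slc7a11 match, 47 bases before the start, also stands as the reverse complement and lies within the printed stretch in lower case.
Asns: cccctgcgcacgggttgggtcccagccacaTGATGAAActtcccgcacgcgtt
Got1: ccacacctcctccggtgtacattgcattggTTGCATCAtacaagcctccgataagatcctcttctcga
Chac1: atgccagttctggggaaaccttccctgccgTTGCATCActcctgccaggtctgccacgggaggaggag
Slc7a11: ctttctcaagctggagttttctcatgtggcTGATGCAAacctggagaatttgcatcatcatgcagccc

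Of the 33 members, 30 passed the filter on low counts and were tested together with 11735 genes in all, using edgeR's quasi-likelihood test with Benjamini-Hochberg adjustment over all genes tested and a threshold of 0.05. The 3 that were not tested were Pycr1, which makes proline, Slc7a11, the cystine carrier, and Slc43a1, a carrier of large neutral amino acids. Pycr1 had 12 counts in the CD4Cre- libraries of Tfh_5, 13 counts in the CD4Cre- libraries of Tfh_A and 0 elsewhere. Slc43a1 had 8 counts, all in 1 CD4Cre- library of Tfh_5. Slc7a11 had 2 counts in the CD4Cre- libraries of Tfh_1, 1 in those of Tfh_A and 0 elsewhere. Across 9 comparisons between groups, 8 of the 30 tested members were called at least once, always lower in the first-named group, and the other 22 were never called.

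**Figure D1:**
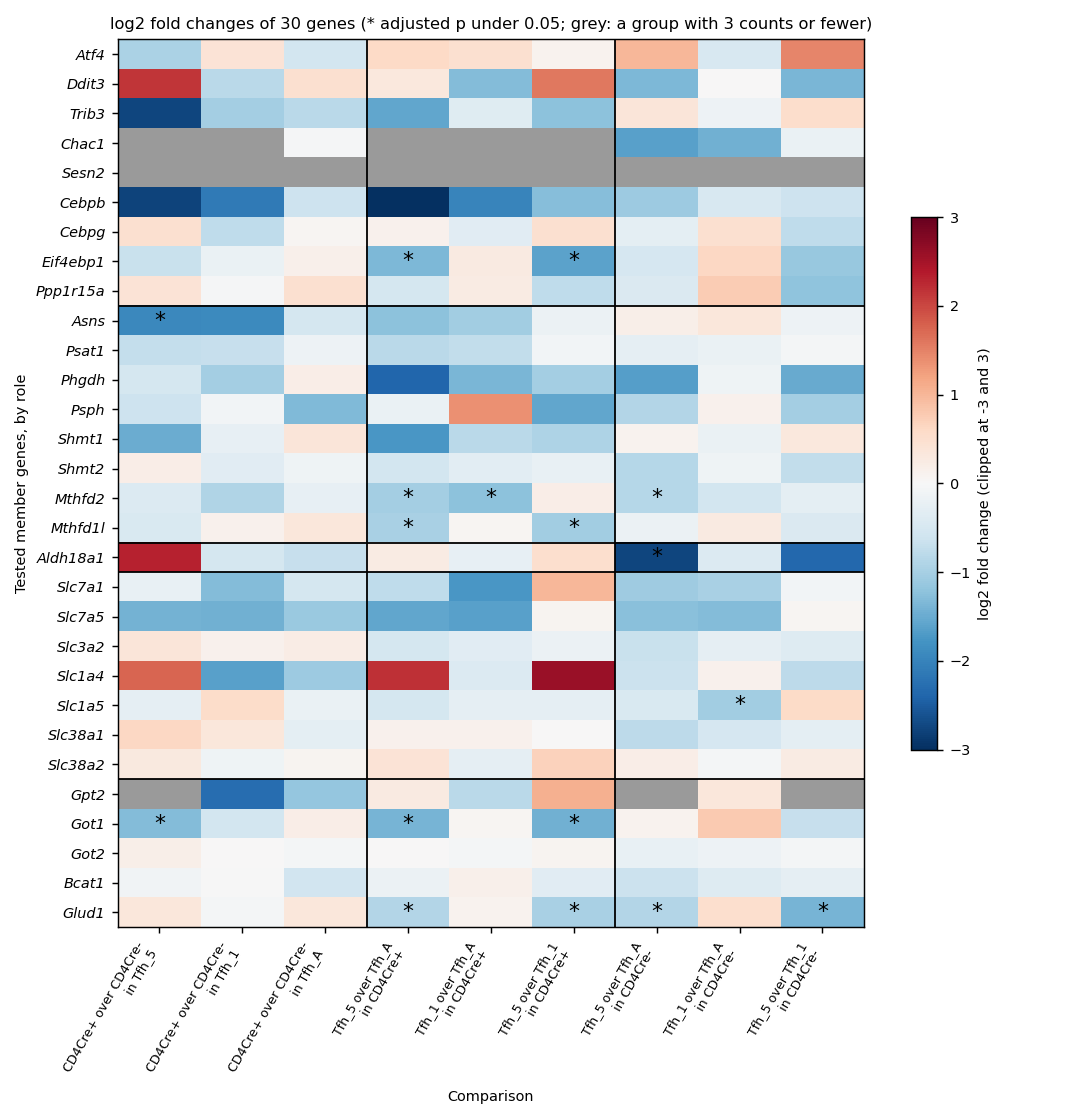
Colour gives the log2 fold change of 30 tested members (rows, by role) in 9 comparisons between groups (columns), clipped at -3 and 3; stars mark adjusted p under 0.05 by edgeR, and grey marks 17 of 270 cells in which a group had 3 counts or fewer. All 17 starred cells are blue, and they fall on 8 genes: Eif4ebp1, Asns, Mthfd2, Mthfd1l, Aldh18a1, Slc1a5, Got1 and Glud1.

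The first question is how the genotype label bears on these genes within each treatment. In Tfh_5, edgeR called the asparagine synthetase gene Asns and the cytosolic aspartate transaminase gene Got1 lower in the CD4Cre+ libraries, and called no member higher. These were 2 of 30 tested members, against a background of 3.24% of all genes called in either direction and 2.05% called lower. In Tfh_1 and in Tfh_A no member passed the test with edgeR, where the background was 0.852% and 0% of genes. At an unadjusted p under 0.05, 7 members passed in Tfh_5, 5 in Tfh_1 and 2 in Tfh_A, and DESeq2 called 3, 2 and 0 members in the same order of treatments. The median log2 fold change of the 30 members was -0.25 in Tfh_5, -0.54 in Tfh_1 and -0.15 in Tfh_A, beside 0.00, -0.02 and 0.00 over all genes tested. In Tfh_1, 24 of the 30 members lay below 0, where 51% of all genes did. Signs of members that were never called can change with the processing, so this count is a description only.

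Asns encodes the enzyme that makes asparagine from aspartate and glutamine, and lies on chromosome 6 between positions 7675165 and 7693209 (GRCm38.p6). In Tfh_5 it stood at 10.7, 9.22 and 4.13 CPM in the CD4Cre+ libraries, against 32, 32.2 and 27.9 CPM in the CD4Cre- libraries. In Tfh_1 it stood at 6.59, 7.91 and 12.7 CPM in the CD4Cre+ libraries, against 27.7, 34.9 and 39.7 CPM in the CD4Cre- libraries. In both treatments every CD4Cre+ library was below every CD4Cre- library. In Tfh_A the CD4Cre+ libraries had 23.7, 15.5 and 17.1 CPM, against 28.8, 22.5 and 30.3 CPM in the CD4Cre- libraries, and here the ranges overlapped. The log2 fold change of the CD4Cre+ over the CD4Cre- label was -1.94 ± 0.50 in Tfh_5 (SE, adjusted p = 0.0198 with edgeR), -1.91 ± 0.49 in Tfh_1 (adjusted p = 0.0511 with edgeR) and -0.53 ± 0.48 in Tfh_A (adjusted p = 1). With DESeq2 the Tfh_1 difference passed, at an adjusted p of 0.0037. The difference of these effects between Tfh_5 and Tfh_A was -1.40 ± 0.68 and missed the threshold (adjusted p = 0.441 with edgeR), so the effects were not shown to differ between treatments. The Tfh_5 call was lost without CD4Cre+ replicate 6 (adjusted p = 0.134), the library with the lowest Asns level of that group, and without CD4Cre- replicate 2 (adjusted p = 0.0535). It was also lost when the 6 libraries of Tfh_5 were fitted alone (adjusted p = 0.157 with edgeR).

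Got1 encodes the cytosolic aspartate transaminase, which interconverts aspartate and glutamate, and lies on chromosome 19 between positions 43499752 and 43524605. In Tfh_5 it stood at 26.3, 34.1 and 22.7 CPM in the CD4Cre+ libraries, against 63.0, 60.4 and 83.3 CPM in the CD4Cre- libraries. In Tfh_1 it stood at 58.3, 78.2 and 89.5 CPM in the CD4Cre+ libraries, against 93.6, 120 and 117 CPM in the CD4Cre- libraries. In both treatments the CD4Cre+ libraries were all below the CD4Cre- libraries. In Tfh_A the 3 CD4Cre+ libraries had 62.1, 81 and 74.2 CPM, inside or just above the 60.7, 52.4 and 78 CPM of the CD4Cre- libraries. The log2 fold change was -1.31 ± 0.28 in Tfh_5 (adjusted p = 0.00438 with edgeR), -0.55 ± 0.28 in Tfh_1 (adjusted p = 0.478) and 0.19 ± 0.28 in Tfh_A (adjusted p = 1). The Tfh_5 call held when any 1 library was left out, and was lost when the 6 libraries of Tfh_5 were fitted alone (adjusted p = 0.128).

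Got1 was also the only member whose genotype label effect differed between treatments by the test of the difference itself. The effect in Tfh_5 minus that in Tfh_A was -1.50 ± 0.39 (adjusted p = 0.0479 with edgeR), in a contrast where 1.19% of all genes were called and 0.861% were called lower. This call was narrow, and it was lost when any of 9 single libraries was left out, with an adjusted p between 0.0598 and 0.158. No member passed in the other contrasts of this kind, where the background was 0.239% for Tfh_1 minus Tfh_A and 0.0597% for Tfh_5 minus Tfh_1. In each of them 3 members had an unadjusted p under 0.05 and DESeq2 called 0.

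**Figure D2:**
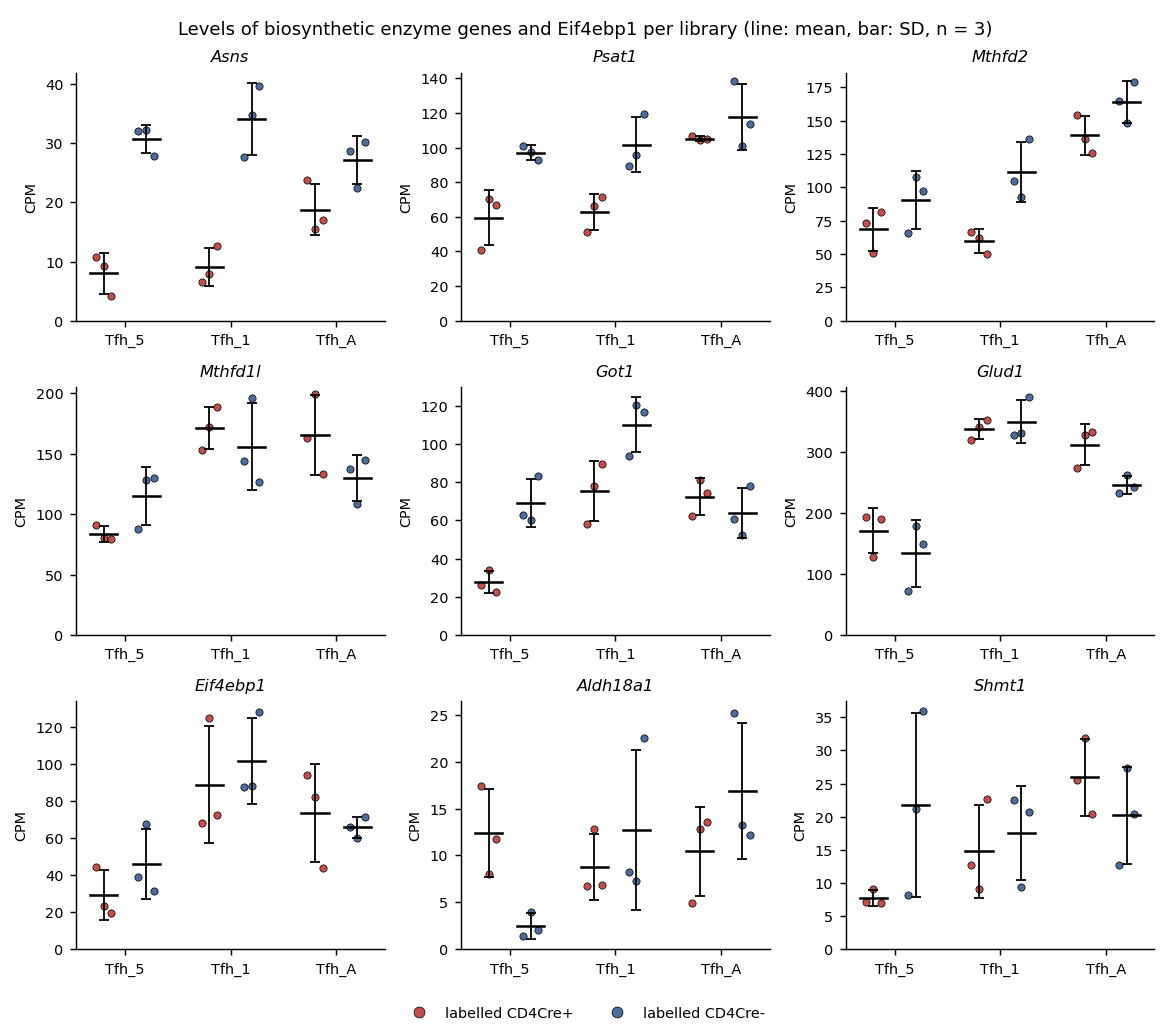
Levels in CPM (vertical axes, from 0) of 8 enzyme genes and Eif4ebp1 in each of the 18 libraries, by treatment (horizontal axes) and genotype label (colour); lines are means and bars SD of 3 libraries, with bars that would pass below 0 ending at the axis. For Got1, the CD4Cre+ libraries of Tfh_5, at 22.7 to 34.1 CPM, lie below every other library of that panel.

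The enzymes that make serine and one-carbon units gave smaller label differences, none of which was called by edgeR. Psat1, the serine pathway transaminase, stood at 41.1, 70.5 and 66.9 CPM in the CD4Cre+ libraries of Tfh_5, against 101, 97.8 and 92.7 CPM in the CD4Cre- libraries. In Tfh_1 it stood at 51.5, 66.3 and 71.5 CPM in the CD4Cre+ libraries, against 89.5, 95.9 and 120 CPM in the CD4Cre- libraries. The groups did not overlap in either treatment, yet the log2 fold changes of -0.71 ± 0.25 (adjusted p = 0.149) and -0.69 ± 0.25 (adjusted p = 0.286) missed the threshold. Mthfd2, a mitochondrial folate enzyme that releases one-carbon units, had 66.9, 62.2 and 49.8 CPM in the CD4Cre+ libraries of Tfh_1, against 105, 92.7 and 136 CPM in the CD4Cre- libraries. Those ranges were apart as well, with a log2 fold change of -0.90 ± 0.25 and an adjusted p of 0.0891 with edgeR, against 0.0311 with DESeq2.

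Counted over all 30 tested members, groups that did not overlap were 2 higher and 5 lower in the CD4Cre+ libraries of Tfh_5, beside 7.98% and 8.62% of all genes. In Tfh_1 they were 1 higher and 5 lower, beside 7.73% and 8.53%, and in Tfh_A 1 higher and 2 lower, beside 6.15% and 6.82%. Among the 8 asparagine, serine and one-carbon enzymes, 7 had a log2 fold change below 0 in Tfh_5 and 7 in Tfh_1, and 5 in Tfh_A. The 9 carriers had 7 tested members, with a median log2 fold change of 0.30 in Tfh_5, -0.13 in Tfh_1 and -0.29 in Tfh_A.

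A comparison of the genotype labels over all 3 treatments was added after seeing the data. Counts were summed over the libraries that share a number within a label, which gave 3 sums per label, although the labels do not say that a number marks an animal. Asns stood at 12.9, 11.6 and 11.5 CPM in the CD4Cre+ sums, against 29.8, 29.0 and 33 CPM in the CD4Cre- sums. Its log2 fold change was -1.35 ± 0.26 (SE, adjusted p = 0.00927 with edgeR), and it was the only one of 30 tested members called, against 1.69% of 11688 genes called and 0.59% called lower. The call was lost without CD4Cre- replicate 5 (adjusted p = 0.0639). Psat1 stood at 64.3, 83.8 and 83.5 CPM in the CD4Cre+ sums, against 111, 99.1 and 111 CPM in the CD4Cre- sums, with no overlap and no call (-0.47 ± 0.16, adjusted p = 0.153). Slc7a1 likewise did not overlap, at 17.9, 36.5 and 35.5 CPM in the CD4Cre+ sums against 40.4, 52.0 and 47.3 CPM in the CD4Cre- sums (-0.64 ± 0.25, adjusted p = 0.248). Of 20 tRNA synthetases, Eprs was lower in the CD4Cre+ sums, at 81.5 ± 15.6 CPM against 151 ± 15.4 CPM in the CD4Cre- sums (SD, n = 3 each; -0.89 ± 0.16, adjusted p = 0.00775 with edgeR). The amino acid carrier gene Slc16a10 was higher, at 34.2 ± 7.75 CPM in the CD4Cre+ sums against 9.58 ± 0.711 CPM in the CD4Cre- sums (1.84 ± 0.27, adjusted p = 0.00132 with edgeR). The glutamine synthetase gene Glul was higher as well, at 17.1 ± 3.68 CPM in the CD4Cre+ sums against 6.11 ± 1.33 CPM in the CD4Cre- sums (1.48 ± 0.36, adjusted p = 0.0459 with edgeR). Ero1a and Canx, described further on, were lower in the CD4Cre+ sums, at -0.64 ± 0.16 and -0.54 ± 0.13 (adjusted p of 0.0483 and 0.0449 with edgeR). In Tfh_A alone Ero1a was not lower, at 150, 116 and 134 CPM in CD4Cre+ against 134, 104 and 94.8 CPM in CD4Cre- libraries.

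**Figure D3:**
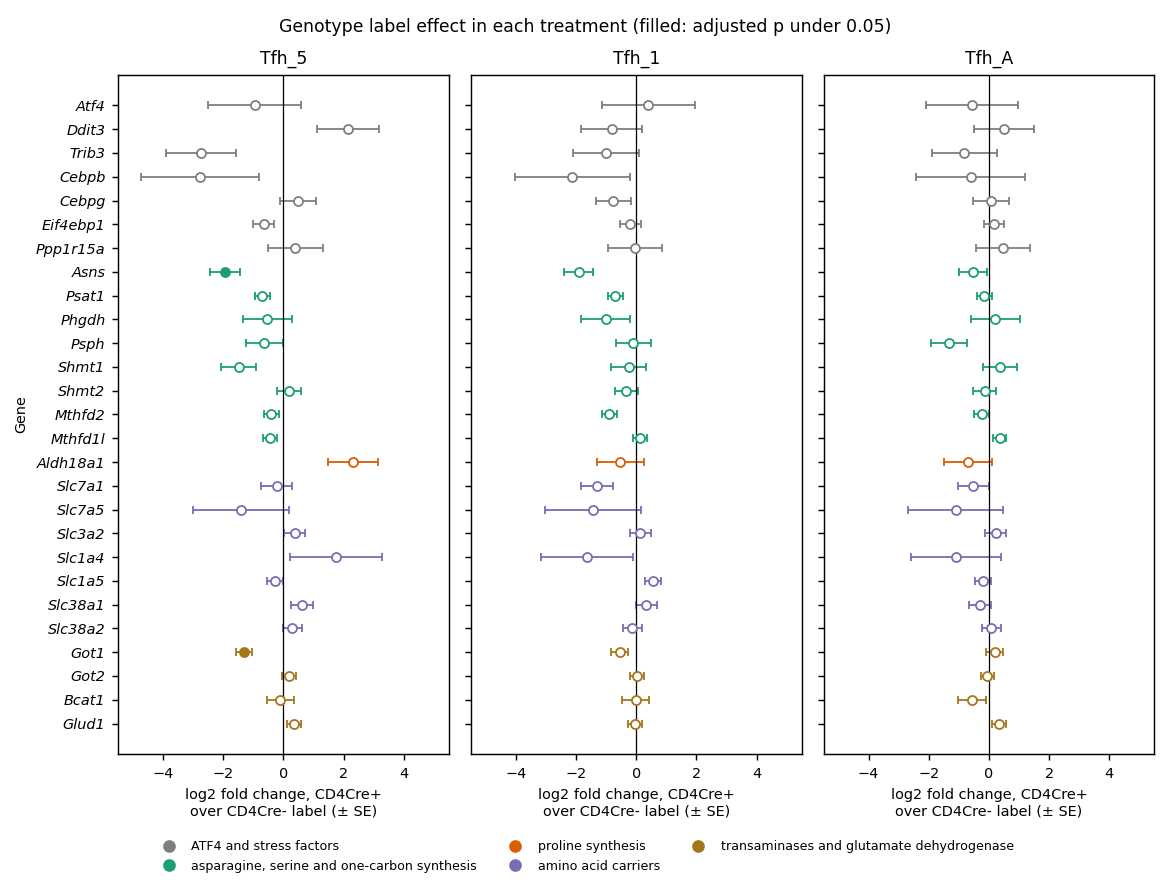
Log2 fold change of the CD4Cre+ over the CD4Cre- label (horizontal axes, bars SE) for 27 tested members (rows) in Tfh_5, Tfh_1 and Tfh_A, coloured by role; Sesn2, Chac1 and Gpt2, with groups at or near 0 counts, are left out. The filled points, called by edgeR, are Asns at -1.94 and Got1 at -1.31 in Tfh_5, and no point is filled in Tfh_1 or Tfh_A.

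The second question is how the treatments differ within a genotype label. These contrasts share libraries with each other, so that the Tfh_5 and Tfh_1 values below are set against the same Tfh_A libraries. In the CD4Cre+ libraries, Got1, the one-carbon enzymes Mthfd1l and Mthfd2, the translation repressor gene Eif4ebp1 and the glutamate dehydrogenase gene Glud1 were lower in Tfh_5 than in Tfh_A. They were 5 of 30 tested members, against 5.39% of all genes called and 3% called lower. In Tfh_1 against Tfh_A, 1 member fell, Mthfd2, against 2.57% of genes called and 0.997% called lower. In Tfh_5 against Tfh_1, 4 members fell, Got1, Eif4ebp1, Mthfd1l and Glud1, against 1.76% of genes called and 1.32% called lower. No member was called higher by edgeR in any of these contrasts.

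Got1 in the CD4Cre+ libraries had 22.7 to 34.1 CPM in Tfh_5, against 62.1 to 81 CPM in Tfh_A, and had 58.3 to 89.5 CPM in Tfh_1. Got1 differed by a log2 fold change of -1.39 ± 0.28 for Tfh_5 over Tfh_A (adjusted p = 0.00129 with edgeR) and -1.44 ± 0.28 for Tfh_5 over Tfh_1 (adjusted p = 0.00254). Between Tfh_1 and Tfh_A it was 0.06 ± 0.28 (adjusted p = 0.993). Got1 was thus low in 1 of the 3 conditions under the CD4Cre+ label. In the CD4Cre- libraries it was 63.0, 60.4 and 83.3 CPM in Tfh_5 and 60.7, 52.4 and 78 CPM in Tfh_A, with overlapping ranges and a log2 fold change of 0.11 ± 0.28 (adjusted p = 0.939).

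Mthfd2 lies on chromosome 6 between positions 83305704 and 83326011. In the CD4Cre+ libraries it stood at 73.1, 50.6 and 81.6 CPM in Tfh_5 and 66.9, 62.2 and 49.8 CPM in Tfh_1, against 154, 136 and 126 CPM in Tfh_A. All 6 libraries of Tfh_5 and Tfh_1 were below the 3 of Tfh_A. For Mthfd2 this was a log2 fold change of -1.02 ± 0.25 for Tfh_5 over Tfh_A (adjusted p = 0.00952 with edgeR) and -1.22 ± 0.26 for Tfh_1 over Tfh_A (adjusted p = 0.00373). In the CD4Cre- libraries it stood at 65.9, 108 and 97.0 CPM in Tfh_5, against 164, 148 and 179 CPM in Tfh_A, again with no overlap. That difference was -0.86 ± 0.25 (adjusted p = 0.0354 with edgeR) and was lost when any of 5 single libraries was left out, with an adjusted p between 0.0716 and 0.183. The CD4Cre+ call for Tfh_5 was lost without replicate 3 of Tfh_5 (adjusted p = 0.0827). In the CD4Cre- libraries of Tfh_1 Mthfd2 had 105, 92.7 and 136 CPM, also below all 3 libraries of Tfh_A, and that difference was not called.

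Mthfd1l, which makes formate in mitochondria from the same one-carbon pool, followed the Tfh_5 condition under the CD4Cre+ label. It had 90.8, 80.2 and 79.7 CPM in Tfh_5, against 163, 199 and 133 CPM in Tfh_A, and 153, 172 and 188 CPM in Tfh_1. The 3 libraries of Tfh_5 were below all 6 others. Its log2 fold change was -0.98 ± 0.24 over Tfh_A (adjusted p = 0.00675 with edgeR) and -1.04 ± 0.24 over Tfh_1 (adjusted p = 0.011). The call over Tfh_A was lost without replicate 3 of Tfh_A (adjusted p = 0.0697), and that over Tfh_1 without replicate 6 of Tfh_1 (adjusted p = 0.0593) or replicate 3 of Tfh_5 (adjusted p = 0.051). In the CD4Cre- libraries the levels overlapped, with 87.6 to 130 CPM in Tfh_5 and 108 to 145 CPM in Tfh_A.

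The other enzymes of asparagine, serine and one-carbon synthesis did not pass for Tfh_5 over Tfh_A under the CD4Cre+ label with edgeR, which called 2 of the 8 where DESeq2 called 4. Over all members DESeq2 called 7 in this contrast, against 5 by edgeR. All 8 members of the group had a log2 fold change below 0 for Tfh_5 over Tfh_A under the CD4Cre+ label, with a median of -1.0 beside -0.05 over all genes tested, and for 6 of the 8 the groups did not overlap, where 11.6% of all genes were lower without overlap. Psat1 stood at 41.1, 70.5 and 66.9 CPM in Tfh_5, against 107, 104 and 105 CPM in Tfh_A, and its log2 fold change of -0.82 ± 0.25 lay just past the threshold at an adjusted p of 0.0504 with edgeR, against 0.0198 with DESeq2. Shmt1, the cytosolic serine hydroxymethyltransferase, stood at 7.10, 9.09 and 6.97 CPM in Tfh_5, against 25.6, 31.9 and 20.4 CPM in Tfh_A, with -1.75 ± 0.59 and an adjusted p of 0.0838 with edgeR, against 0.0405 with DESeq2. Phgdh, the first enzyme of serine synthesis, stood at 0, 6.88 and 5.94 CPM in Tfh_5, against 15.5, 29.8 and 22.3 CPM in Tfh_A, and its counts were not whole in 16 of the 18 libraries, so that reads may be shared with other genes. Psph, the last enzyme of serine synthesis, had 3.02 to 16.1 CPM in Tfh_5 and 4.02 to 15.8 CPM in Tfh_A, and Shmt2, the mitochondrial serine hydroxymethyltransferase, had 24.6 to 72.6 CPM in Tfh_5 and 59.1 to 68 CPM in Tfh_A, so both overlapped.

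Glud1, which links glutamate to the citric acid cycle, was lower in Tfh_5 under both labels. In the CD4Cre+ libraries it stood at 193, 128 and 191 CPM in Tfh_5 and 319, 340 and 353 CPM in Tfh_1, against 273, 329 and 333 CPM in Tfh_A. In the CD4Cre- libraries it stood at 72.2, 179 and 150 CPM in Tfh_5 and 327, 331 and 391 CPM in Tfh_1, against 233, 263 and 243 CPM in Tfh_A. Under each label the 3 libraries of Tfh_5 were below all 6 libraries of the other treatments. The log2 fold change of Tfh_5 over Tfh_1 was -0.98 ± 0.23 under CD4Cre+ (adjusted p = 0.0148 with edgeR) and -1.39 ± 0.23 under CD4Cre- (adjusted p = 0.000978). That of Tfh_5 over Tfh_A was -0.87 ± 0.23 under CD4Cre+ (adjusted p = 0.017 with edgeR) and -0.88 ± 0.23 under CD4Cre- (adjusted p = 0.0166). Both Tfh_5 over Tfh_A calls depended on single libraries, the CD4Cre+ one on 3 (adjusted p up to 0.124 without replicate 3 of Tfh_5) and the CD4Cre- one on 2 (up to 0.122 without replicate 2 of Tfh_5). The CD4Cre+ call over Tfh_1 was lost without replicate 6 of Tfh_1 (0.0572) or replicate 3 of Tfh_5 (0.124). Glud1 counts were not whole in 12 libraries, so that reads may be shared with related sequences.

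Eif4ebp1 encodes a repressor of cap-dependent translation that is itself an ATF4 target. Under the CD4Cre+ label it stood at 44.4, 23.4 and 19.5 CPM in Tfh_5 and 68.4, 125 and 72.6 CPM in Tfh_1, against 94.2, 82.4 and 43.6 CPM in Tfh_A. The Tfh_5 and Tfh_1 libraries were apart, while the highest Tfh_5 library lay above the lowest Tfh_A library. Fold changes on the log2 scale were -1.61 ± 0.35 over Tfh_1 (adjusted p = 0.00762 with edgeR) and -1.34 ± 0.35 over Tfh_A (adjusted p = 0.0144). Leaving out replicate 3 or replicate 6 of Tfh_5 ended both calls, with adjusted p of 0.0516 and 0.061 over Tfh_1 and 0.0755 and 0.0985 over Tfh_A. The call over Tfh_1 was also lost without replicate 3 of Tfh_1 (0.0842), and that over Tfh_A without replicate 1 or 3 of Tfh_A (0.0906 and 0.06). Its counts were not whole in 11 libraries.

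Under the CD4Cre- label, 3 members were lower in Tfh_5 than in Tfh_A, Glud1, Mthfd2 and Aldh18a1, against 5.08% of genes called and 1.91% called lower. In Tfh_1 against Tfh_A, 1 member was lower, the glutamine carrier gene Slc1a5, against 2.23% of genes called and 0.733% called lower. In Tfh_5 against Tfh_1 only Glud1 was lower, against 0.554% of genes called and 0.281% called lower. Aldh18a1, the enzyme that starts proline synthesis from glutamate, stood at 1.43, 3.99 and 2.01 CPM in Tfh_5, against 25.2, 13.3 and 12.2 CPM in Tfh_A. The groups were apart, with a log2 fold change of -2.76 ± 0.85 (adjusted p = 0.0478 with edgeR), and the call was lost when any of the 6 libraries was left out, with an adjusted p between 0.0527 and 0.249. Under the CD4Cre+ label, the same gene stood at 17.4, 8.05 and 11.8 CPM in Tfh_5 and 4.93, 12.8 and 13.5 CPM in Tfh_A, with overlap.

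Carriers were called in 1 place only. Slc1a5, which imports glutamine, stood at 54.6, 40.5 and 52.4 CPM in the CD4Cre- libraries of Tfh_1, against 111, 87.9 and 105 CPM in those of Tfh_A. The ranges were apart and the log2 fold change was -1.04 ± 0.27 (adjusted p = 0.0277 with edgeR). The call was lost when any of these 6 libraries was left out, with an adjusted p between 0.0606 and 0.205. Under the CD4Cre+ label Slc1a5 had 66.6 to 84.7 CPM in Tfh_1 and 70.7 to 98.9 CPM in Tfh_A, which overlapped. Within Tfh_1, its CD4Cre+ libraries, at 66.6, 66.9 and 84.7 CPM, were all above its CD4Cre- libraries. Slc1a5 was the 1 member higher without overlap in that label comparison, where 7.73% of all genes were, and it was not called.

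Slc7a1, the carrier of arginine and lysine, stood at 1.62, 14.9 and 25.1 CPM in the CD4Cre+ libraries of Tfh_1, against 34.9, 46.3 and 57.7 CPM in those of Tfh_A. The groups did not overlap, and the log2 fold change of -1.75 ± 0.53 missed the threshold with edgeR (adjusted p = 0.0727) but passed with DESeq2 (0.0497). In the CD4Cre- libraries it had 39.8, 39.3 and 22.4 CPM in Tfh_1 and 26.2, 43.5 and 25.8 CPM in Tfh_5, against 55.2, 66.2 and 77.5 CPM in Tfh_A, where each of the 6 lay below all 3. Neither difference passed, with adjusted p of 0.456 for Tfh_1 and 0.311 for Tfh_5 with edgeR.

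The heavy and light chains of the large neutral amino acid exchanger are encoded by Slc3a2 and Slc7a5. Slc3a2 had 54.4, 79.7 and 69.7 CPM in the CD4Cre+ libraries of Tfh_5, against 23.5, 35.9 and 98.9 CPM in the CD4Cre- libraries. The last of these, replicate 5, stood well above the other 2 of its group, and without it the Tfh_5 over Tfh_A difference under CD4Cre- was called at -1.49 ± 0.35 (adjusted p = 0.00706 with edgeR). With all libraries that difference was -0.67 ± 0.36 (adjusted p = 0.366). Slc7a5 was low throughout, at 0 to 7.90 CPM in the 9 CD4Cre+ libraries and 0 to 23.9 CPM in the 9 CD4Cre- libraries, and did not pass in any comparison.

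The sodium-coupled carriers of neutral amino acids, Slc38a1 and Slc38a2, overlapped between the labels in Tfh_5. Slc38a1 had 45.5, 56.4 and 76.7 CPM in the CD4Cre+ libraries of Tfh_5, against 23.2, 62.0 and 30.8 CPM in the CD4Cre- libraries, and Slc38a2 had 66.8, 111 and 74.6 CPM in the CD4Cre+ libraries, against 73.6, 78.7 and 53.0 CPM in the CD4Cre- libraries. Slc1a4, a carrier of alanine, serine and cysteine, had 3.02, 14.3 and 13.2 CPM in the CD4Cre+ libraries of Tfh_5, against 3.11, 3.42 and 2.51 CPM in the CD4Cre- libraries, with 1 of 3 inside that range. None of these was called.

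**Figure D4:**
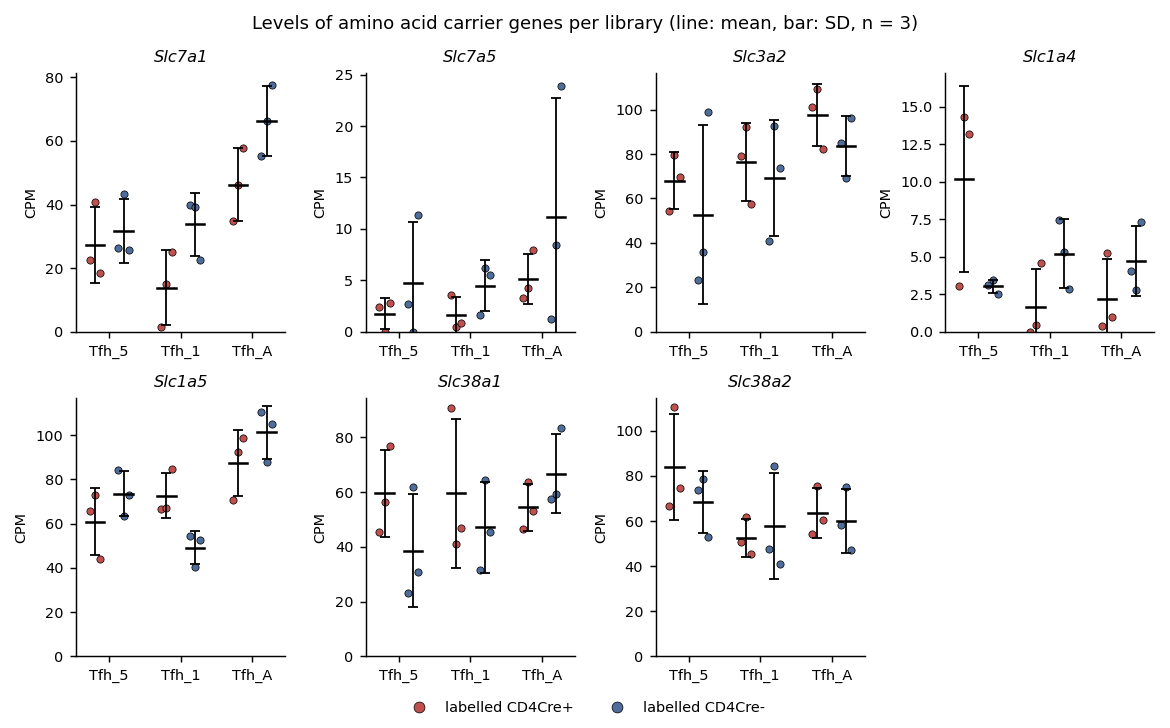
Levels in CPM (vertical axes, from 0) of the 7 tested carrier genes in each library, by treatment (horizontal axes) and genotype label (colour); lines are means and bars SD of 3 libraries, with bars that would pass below 0 ending at the axis. In the Slc1a5 panel the CD4Cre- libraries of Tfh_1, at 40.5 to 54.6 CPM, lie below those of Tfh_A, at 87.9 to 111 CPM.

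The ATF4 gene itself and its stress partners were low and variable. Atf4 had 3.93, 5.58 and 5.94 CPM in the CD4Cre+ libraries of Tfh_5, against 6.74, 9.26 and 14.1 CPM in the CD4Cre- libraries. It had 5.10, 9.18 and 0 CPM in CD4Cre+ and 10.4, 0.457 and 0 CPM in CD4Cre- libraries of Tfh_1, so replicates of 1 group spanned most of the range seen over all libraries. In Tfh_A it had 2.92, 5.85 and 1.44 CPM in CD4Cre+ and 6.88, 8.08 and 0.2 CPM in CD4Cre- libraries. No Atf4 comparison was called.

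Ddit3, the gene for the stress factor CHOP, stood at 7.86, 13.9 and 19.4 CPM in the CD4Cre+ libraries of Tfh_5, against 4.67, 4.28 and 0.335 CPM in the CD4Cre- libraries, and was 1 of the 2 members higher without overlap there. Trib3, a pseudokinase that ATF4 and CHOP induce, ran the other way, with 0, 0.779 and 5.94 CPM in the CD4Cre+ libraries of Tfh_5, against 6.74, 10.7 and 28.4 CPM in the CD4Cre- libraries. Its log2 fold change was -2.75 ± 1.16, which missed the threshold (adjusted p = 0.242 with edgeR). Cebpb, a bZIP partner of ATF4, had 0.604, 0 and 0.646 CPM in the CD4Cre+ libraries of Tfh_5, against 8.82, 0 and 0 CPM in the CD4Cre- libraries, where 1 library held all its counts. Cebpg, another such partner, had 14.8 to 19.5 CPM in the CD4Cre+ libraries of Tfh_5, against 7.39 to 19.9 CPM in the CD4Cre- libraries. Ppp1r15a, a regulatory subunit of the eIF2alpha phosphatase, had 6.59 to 7.92 CPM in the CD4Cre+ libraries of Tfh_5, against 2.20 to 11.9 CPM in the CD4Cre- libraries. Cebpg and Ppp1r15a overlapped in Tfh_5 and were not called in any comparison.

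Chac1 and Sesn2 were seen at a few counts only. Chac1, which breaks down glutathione, had 0 counts in the CD4Cre+ libraries of both Tfh_5 and Tfh_1, against 17 and 16 counts in the CD4Cre- libraries of Tfh_5 and Tfh_1, and had 63 counts in the CD4Cre+ and 69 in the CD4Cre- libraries of Tfh_A. Sesn2, a leucine sensor, had counts in 2 groups, with 71 in the CD4Cre+ libraries of Tfh_A and 11 in the CD4Cre- libraries of Tfh_1. A count of 0 over a group allows up to 3 counts, for counting error alone, and copies made by PCR are not independent molecules. Neither gene was called.

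**Figure D5:**
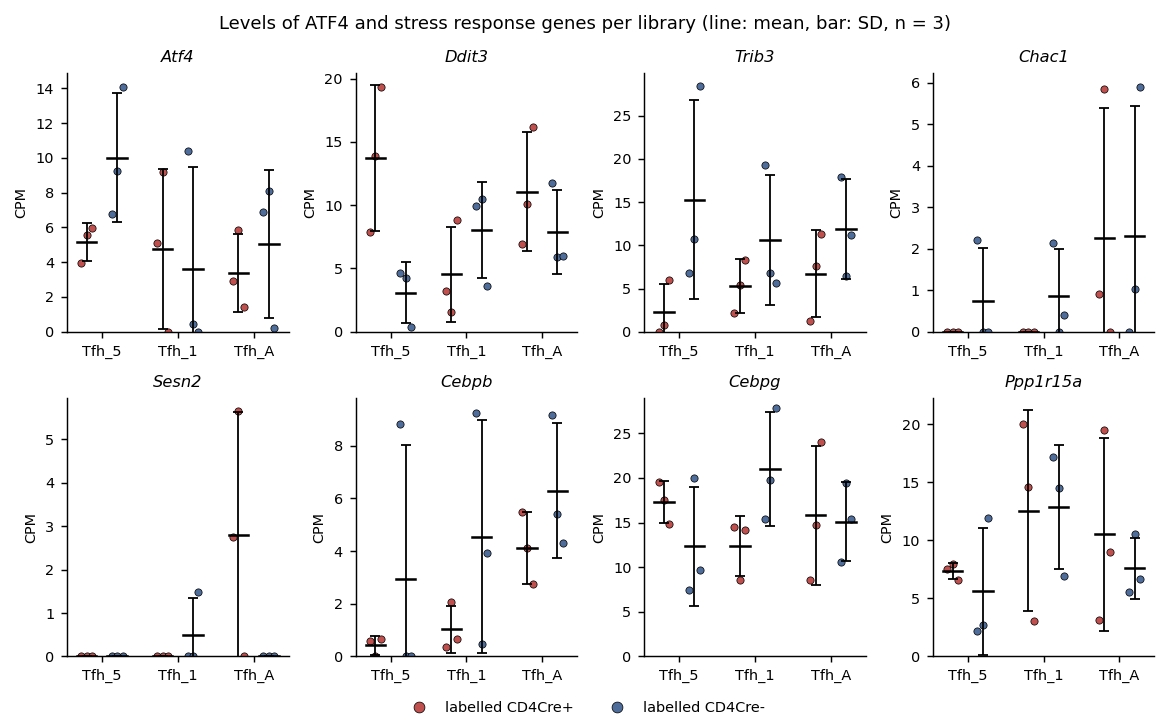
Levels in CPM (vertical axes, from 0) of Atf4 and 7 stress response genes in each library, by treatment (horizontal axes) and genotype label (colour); lines are means and bars SD of 3 libraries, with bars that would pass below 0 ending at the axis. Replicates of 1 group span much of each axis, as for Atf4 in the CD4Cre- libraries of Tfh_1, at 0 to 10.4 CPM.

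The remaining members are transaminases. Got2, the mitochondrial aspartate transaminase, ran between 136 and 250 CPM in the CD4Cre+ and between 143 and 244 CPM in the CD4Cre- libraries, and its counts were not whole in 16 libraries. Bcat1, the cytosolic branched-chain transaminase, ran between 14.2 and 38.8 CPM in the CD4Cre+ and between 15.1 and 41.6 CPM in the CD4Cre- libraries. Gpt2, the mitochondrial alanine transaminase, had 39 counts in the CD4Cre+ libraries of Tfh_5, all in 1 library, against 1 count in the CD4Cre- libraries. None of these was called, and Got2 had 246, 250 and 136 CPM in the CD4Cre+ libraries of Tfh_5, against 143, 217 and 198 CPM in the CD4Cre- libraries.

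Other genes of the same pathways were read from lists of ATF4 targets, chaperones of the endoplasmic reticulum, eIF2 kinases and subunits, tRNA synthetases and further carriers. In Tfh_5, edgeR called 1 of 14 tested further ATF4 targets lower in the CD4Cre+ than in the CD4Cre- libraries. It also called 1 of 18 chaperones and 1 of 13 eIF2 kinases and subunits lower, and 1 of 19 further carriers higher. Over all genes tested, 3.24% were called in this comparison and 2.05% were called lower, and a count of 1 in lists of this size is not read as a result about the list. For the 14 further ATF4 targets the count depended on the tool, with 4 called by DESeq2 and 6 at an unadjusted p under 0.05. DESeq2 called 1 in each of the lists of chaperones, eIF2 kinases and subunits, and further carriers. The ATF4 target called by edgeR was Ero1a, an oxidase for protein folding that hypoxia also induces. It had 32, 13.9 and 23.8 CPM in the CD4Cre+ libraries, against 120, 81.5 and 73.9 CPM in the CD4Cre- libraries. Its log2 fold change was -1.99 ± 0.30 (adjusted p = 4.77e-05 with edgeR), and the groups did not overlap. The chaperone was Canx, at 125 ± 27.3 CPM in CD4Cre+ and 231 ± 63.0 CPM in CD4Cre- libraries (SD, n = 3 each), with -0.89 ± 0.23 (SE, adjusted p = 0.02 with edgeR). The kinase was Eif2ak2, activated by double-stranded RNA, with 0 counts in the CD4Cre+ libraries against 125 counts in the CD4Cre- libraries, or at least 44.4-fold lower by a floor of 3 counts over the group. Its adjusted p was 0.0469 with edgeR, just under the threshold, and the CD4Cre- libraries of Tfh_1 held only 0, 16 and 23 counts. The carrier was Slc16a10, which moves aromatic amino acids, at 50.5, 61.8 and 79 CPM in the CD4Cre+ libraries, against 15.6, 14.1 and 6.86 CPM in the CD4Cre- libraries, with 2.39 ± 0.64 (adjusted p = 0.0289 with edgeR).

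In Tfh_1, 1 of the 14 further ATF4 targets, Atf3, and 1 of 20 tRNA synthetases, Eprs, were lower in the CD4Cre+ libraries, where 0.852% of all genes were called. Atf3, an early stress factor, had 0 counts in the CD4Cre+ libraries against 353 counts in the CD4Cre- libraries, or at least 120-fold lower by the same floor (adjusted p = 0.026 with edgeR). Eprs, which charges glutamate and proline tRNA, stood at 40.4, 61.4 and 67.9 CPM in the CD4Cre+ libraries, against 116, 138 and 126 CPM in the CD4Cre- libraries, with -1.17 ± 0.27 (adjusted p = 0.0233 with edgeR). Under the CD4Cre+ label, edgeR called 4 of the 14 further ATF4 targets lower in Tfh_5 than in Tfh_A. The list as a whole went both ways, with 6 log2 fold changes above 0 and 8 below 0. Of all genes, 5.39% were called there and 3% called lower. The 4 called lower included Ero1a at -2.52 ± 0.30 (adjusted p = 2.1e-07 with edgeR), Stc2 (adjusted p = 0.00675) and Atf3 (adjusted p = 0.015). Stc2 and Atf3 had 0 counts in Tfh_5, at least 57.9-fold and 55.1-fold lower by the same floor on pooled counts. Single Tfh_A libraries held 10, 69 and 108 counts of Stc2 and 2, 55 and 121 of Atf3, a spread these bounds leave out. In that contrast 2 of 19 further carriers were higher, Slc43a2 at 2.59 ± 0.60 and Slc16a10 at 2.41 ± 0.64, and 1 was lower, the taurine carrier gene Slc6a6 at -0.95 ± 0.25 (adjusted p of 0.0051, 0.0172 and 0.015 with edgeR). Also lower there were 1 of 20 tRNA synthetases, Sars, which charges serine tRNA, at -0.88 ± 0.25 (adjusted p = 0.024 with edgeR), and 1 of 18 chaperones, Hsp90b1, at -0.89 ± 0.27 (adjusted p = 0.0464). In the CD4Cre- libraries Slc6a6 was also lower in Tfh_5, at 46.8, 55.6 and 50.9 CPM, against 115, 140 and 136 CPM in Tfh_A, with -1.35 ± 0.25 (adjusted p = 0.000433 with edgeR). Under that label 1 of the 14 further ATF4 targets was called, Sqstm1, and it was higher in Tfh_5 (1.01 ± 0.28, adjusted p = 0.0246 with edgeR). So was 1 of 13 eIF2 kinases and subunits, Eif2b2 (1.04 ± 0.27, adjusted p = 0.0169), where 5.08% of all genes were called. Sars lay the other way there, at 0.68 ± 0.24, and was not called (adjusted p = 0.118). Among 21 tested genes of amino acid sensing upstream of mTORC1, edgeR and DESeq2 called none in any of the 3 genotype label comparisons, with 1 gene at an unadjusted p under 0.05 in each. In the same 3 comparisons the 18 tested further one-carbon and folate enzymes gave none either, with 2, 2 and 0 genes at an unadjusted p under 0.05 in Tfh_5, Tfh_1 and Tfh_A, and the 13 tested further enzymes of glutamine, proline, arginine and branched-chain amino acids gave none, with 0, 1 and 0. For the sums over treatments, edgeR called 0 of the 21 sensing genes and DESeq2 called 2.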

How the data were processed

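RNA was read from the 3′ end of transcripts in 18 libraries. The values are estimated counts per gene that the authors deposited, made with STAR 2.7.2b and featureCounts 1.6.4 on mm10, per the submitters' processing notes. In a library, between 11.7% and 18.1% of all listed genes, those at 0 included, had a count that was not whole. All counts were rounded to whole numbers before testing. CPM are rounded counts over library totals scaled by TMM factors (0.830 to 1.389). Genes were filtered with edgeR 4.0.16's filterByExpr (11735 kept) and fitted in 1 quasi-likelihood model with a mean per group (R 4.3.3), with Benjamini-Hochberg adjustment over all genes. The common biological coefficient of variation was 0.814. DESeq2 1.42.0 was an alternative. The fits were also run on simulated data, with an outcome not reported here. Same-numbered libraries of a genotype label did not deviate together over all genes tested (r between -0.037 and 0.066 over 18 pairs). A correlation over all genes can miss a shared animal, so whether the numbers pair the libraries was not settled. All members are named, with Maf and, of each further list, at most 3 genes with the lowest adjusted p in a comparison. The comparison of counts summed over treatments was chosen after seeing the data. Members and lists were chosen with earlier results of these data known. Nothing was converted between genome builds, and the start windows come from RefSeq.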

Additional observations from a re-analysis of the deposited data

Results flagged for a closer look

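The effect of the genotype label on Got1 differed between treatments by an interaction contrast. The log2 fold change of the CD4Cre+ over the CD4Cre- label in Tfh_5 minus that in Tfh_A was -1.50 ± 0.39 (SE, adjusted p = 0.0479 with edgeR). The 3 CD4Cre+ libraries of Tfh_5 were all below the 3 CD4Cre- libraries of Tfh_5, while the 2 groups of Tfh_A overlapped. The call was lost without the count filter (adjusted p = 0.0721).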

How the results depend on the processing

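Of 19 calls on members, all 19 were kept with DESeq2, with DESeq2's size factors in edgeR and without the 2 most abundant identifiers, 15 without the count filter, and 8 of the 17 that could be compared when the 6 libraries of a comparison were fitted alone. No call reversed. Of the pairs of member and comparison never called, 361 in all, 137 changed sign in some alternative, and no single sign among them is read. The counts of fold changes below 0 given above include pairs never called, and are descriptions only. Only 2 calls were kept in every alternative, both under CD4Cre+, namely Got1 for Tfh_5 over Tfh_A and Mthfd2 for Tfh_1 over Tfh_A. No call on the genotype label was among them. Some counts of called members moved. For the genotype label, 2 in Tfh_5 became 0 in the fit of 6 libraries alone, and 0 in Tfh_1 became 2 with DESeq2. Under CD4Cre+, 1 for Tfh_1 over Tfh_A became 2 with DESeq2, without the filter and with the block, and 4 for Tfh_5 over Tfh_1 became 2 in the fit alone. Under CD4Cre-, 3 for Tfh_5 over Tfh_A became 1 without the filter and 0 in the fit alone, 1 for Tfh_1 over Tfh_A became 0 without the filter, and 1 for Tfh_5 over Tfh_1 became 2 with DESeq2 or no filter and 0 in the fit alone. The difference of label effects, Tfh_5 minus Tfh_A, went to 0 without the filter. The fit alone has fewer libraries, and the cause of the other moves was not tested.

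Leaving out 1 library at a time, the counts of called members ran from 1 to 2, 0 to 0 and 0 to 0 for the label in Tfh_5, Tfh_1 and Tfh_A. Under CD4Cre+ they ran from 2 to 5 for Tfh_5 over Tfh_A, 1 to 2 for Tfh_1 over Tfh_A and 1 to 4 for Tfh_5 over Tfh_1, and under CD4Cre- from 0 to 2, 0 to 0 and 1 to 2. The difference of label effects, Tfh_5 minus Tfh_A, ran from 0 to 1, the other 2 differences stayed at 0, and the sums over treatments ran from 0 to 1.

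With the replicate number as a block, although the numbers were not shown to pair the libraries, the treatment contrasts gave 6, 2 and 4 called members under CD4Cre+ and 2, 1 and 1 under CD4Cre-, for Tfh_5 over Tfh_A, Tfh_1 over Tfh_A and Tfh_5 over Tfh_1. Of 15 calls, 14 were kept, and that on Aldh18a1 was lost (adjusted p = 0.0999). At totals of 6424874 to 9236153 counts per library, members at a few counts could not be compared.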

Other observations

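Some genes of the further lists differed between treatments under the CD4Cre- label. Hspa5, the main chaperone of the endoplasmic reticulum, stood at 573, 436 and 432 CPM in Tfh_5, against 282, 197 and 213 CPM in Tfh_1, a log2 fold change of 1.06 ± 0.20 (adjusted p = 0.00335 with edgeR). It was lower in Tfh_1 than in Tfh_A (-0.85 ± 0.20, adjusted p = 0.0112). Mat2a, which makes the methyl donor S-adenosylmethionine, was at 110, 114 and 102 CPM in Tfh_1, against 214, 200 and 260 CPM in Tfh_A (-1.04 ± 0.23, adjusted p = 0.00648 with edgeR). Lamtor5, of the sensing genes upstream of mTORC1, was higher in Tfh_5, at 89.3, 60.9 and 144 CPM, against 38.6, 31.2 and 23.2 CPM in Tfh_1 (1.66 ± 0.34, adjusted p = 0.0116 with edgeR). Ddit4, an inhibitor of mTORC1 that ATF4 induces, was higher in Tfh_1, at 303, 506 and 470 CPM, against 211, 246 and 214 CPM in Tfh_A (0.93 ± 0.21, adjusted p = 0.00736 with edgeR). Under the CD4Cre+ label it was lower in Tfh_5, at 266, 223 and 184 CPM, against 403, 409 and 487 CPM in Tfh_1 (-0.95 ± 0.21, adjusted p = 0.00762 with edgeR).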
